A study of Homo sapiens with 12 samples.

Results

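Olfactory receptor genes encode the odorant receptors of the nose, and chromosome 11 carries many of them. They were taken here as the protein-coding genes of chromosome 11 whose symbol is OR, a number, letters and a number, such as OR4C3, in the RefSeq gene table of GRCh38.p14. The rule found 171 genes. OR8U8, OR8U9 and OR9G9 are placed by the table on other scaffolds and were not analysed, which left 168 genes. The whole table analysed holds 19839 protein-coding genes, from the autosomes 1 to 22 and from X. The window of a gene is all sequence within 2500 bp of either of its ends, and its value is the number of bp of that window inside the peaks of a library. A gene is called marked by a library when a peak overlaps its window by 1 bp or more.

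The study used MKL-1, an established Merkel cell carcinoma cell line. The cells were grown with 3 µM EPZ011989, an inhibitor of the histone methyltransferase EZH2, in 1% ethanol, or with 1% ethanol alone as the vehicle. They were harvested on day 6, after the medium had been refreshed on day 3. CUT&RUN, in which an antibody-tethered nuclease releases the DNA around a mark, was run with antibodies against H3K27me3 and H3K4me3 and with control IgG, each at a dilution of 1 to 100. The groups are EPZ011989 H3K27me3, EPZ011989 H3K4me3, EPZ011989 IgG, vehicle H3K27me3, vehicle H3K4me3 and vehicle IgG, with 2 libraries each. All come from 1 cell line treated in duplicate, so p-values measure only the spread between duplicate treatments, which may be technical.

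Olfactory sensory neurons of the nose usually express a single receptor gene each and keep the others silent. In those neurons of the mouse, the silent receptor genes lie in constitutive heterochromatin that carries H3K9me3, a mark not measured here. H3K27me3 is a different repressive mark, written by EZH2 in the Polycomb complex and often found at CpG-rich promoters of developmental genes, and H3K4me3 marks active gene starts. Receptors of families 51 to 56 are class I, related to the receptors of fish, and all other families are class II.

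H3K27me3 lists held 363 and 22 peaks with EPZ011989, against 40782 and 44287 in vehicle, on chromosomes 1 to 22 and X. H3K4me3 lists held 23106 and 21086 peaks with EPZ011989, against 22726 and 23804 in vehicle. IgG lists held at most 38 peaks, and no IgG peak lay in any window of the 168 genes. Depth is unknown, since the files hold peaks and no read totals. A background solved from the most frequent fold and p of each list, in fragments per bp, was 0.373 and 0.148 in the EPZ011989 H3K27me3 libraries and 1.12 and 1.63 in the vehicle H3K27me3 libraries. For H3K4me3 this background was 1.48 and 1.24 in the EPZ011989 libraries and 0.572 and 0.857 in the vehicle libraries. The part of the lower H3K27me3 and higher H3K4me3 background with EPZ011989 in the comparison of treatments was not tested. The cell line label was checked against 12 markers of Merkel and neuroendocrine cells, and all 12 carried H3K4me3 in both libraries of each treatment. Of all genes, 65.4% carried it in both vehicle libraries and 66.5% in both EPZ011989 libraries. Of 3 erythroid markers, 1 carried it in both libraries of each treatment, KLF1. Of 6 markers of olfactory sensory neurons, GNAL and ADCY3 carried H3K4me3, and OMP, which encodes the olfactory marker protein, was at 0 bp for both marks in every library.

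Promoter sequences show what the receptor genes look like at their starts. RefSeq entries for GRCh38.p14, from 250 bases before to 50 after the gene start, were matched for 135 of the 168 genes. The promoters of OR52N2, OR10A3 and OR4X2 are shown because they are the ones with H3K27me3 over the promoter itself in both vehicle libraries. They lie at chr11:5808674-5808973 on the plus strand, chr11:7941659-7941958 on the minus strand and chr11:48244854-48245153 on the plus strand. Capitals mark CpG dinucleotides, of which they hold 14, 2 and 0 in the same order.

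OR52N2: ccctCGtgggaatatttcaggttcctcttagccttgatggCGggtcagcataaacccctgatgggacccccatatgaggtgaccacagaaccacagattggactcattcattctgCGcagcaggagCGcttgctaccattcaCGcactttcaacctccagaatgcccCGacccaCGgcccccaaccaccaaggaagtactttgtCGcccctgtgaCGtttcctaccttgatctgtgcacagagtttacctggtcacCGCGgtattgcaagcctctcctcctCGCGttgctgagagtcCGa
OR10A3: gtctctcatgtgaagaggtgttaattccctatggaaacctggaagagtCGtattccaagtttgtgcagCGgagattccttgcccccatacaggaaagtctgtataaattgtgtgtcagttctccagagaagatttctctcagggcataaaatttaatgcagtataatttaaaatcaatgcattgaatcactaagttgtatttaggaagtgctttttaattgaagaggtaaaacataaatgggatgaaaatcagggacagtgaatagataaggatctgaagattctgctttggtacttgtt
OR4X2: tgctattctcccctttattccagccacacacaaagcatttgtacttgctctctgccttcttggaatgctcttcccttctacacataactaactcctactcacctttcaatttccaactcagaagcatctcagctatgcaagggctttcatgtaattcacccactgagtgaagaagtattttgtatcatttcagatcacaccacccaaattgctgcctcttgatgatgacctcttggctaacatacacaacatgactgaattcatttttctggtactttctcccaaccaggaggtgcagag

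The first comparison asked how much H3K27me3 these genes carried in vehicle-treated cells. Few did: 16 of the 168 were marked in both vehicle libraries, which is 9.52%, against 37.1% of all protein-coding genes. A further 11 were marked in 1 vehicle library and 141 in neither. Vehicle replicate 1 marked 23 of the genes and vehicle replicate 2 marked 20. The windows, 1250 kb in all once overlaps are merged, held 34.6 and 39.1 kb of H3K27me3 in vehicle replicates 1 and 2. As a share of summed window length, 2.69% and 3.21% were covered in these genes, against 14.7% and 16.4% over all genes. Receptor genes and pseudogenes can be near-identical copies, and the part of read mapping in these shares was not tested.

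The share was also low at receptor pseudogenes of chromosome 11, and higher at receptor genes elsewhere. Of 205 pseudogenes, 16 were marked in both vehicle libraries (7.8%). Of 219 receptor genes on other chromosomes, 61 were (27.9%). Of the other protein-coding genes of chromosome 11, 433 of 1129 were marked (38.4%), with 18 of 61 inside the receptor clusters described below (29.5%) and 415 of 1068 outside them (38.9%). In each vehicle library alone, the receptor genes of chromosome 11 had a lower share (13.7% and 11.9%) than receptor genes elsewhere (31.5% and 30.6%) and than the other genes inside the clusters (36.1% and 44.3%). These differences exceed the difference between the replicates, and no test over genes was made, since neighbours can share a peak and are not replicates.

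**Figure D1:**
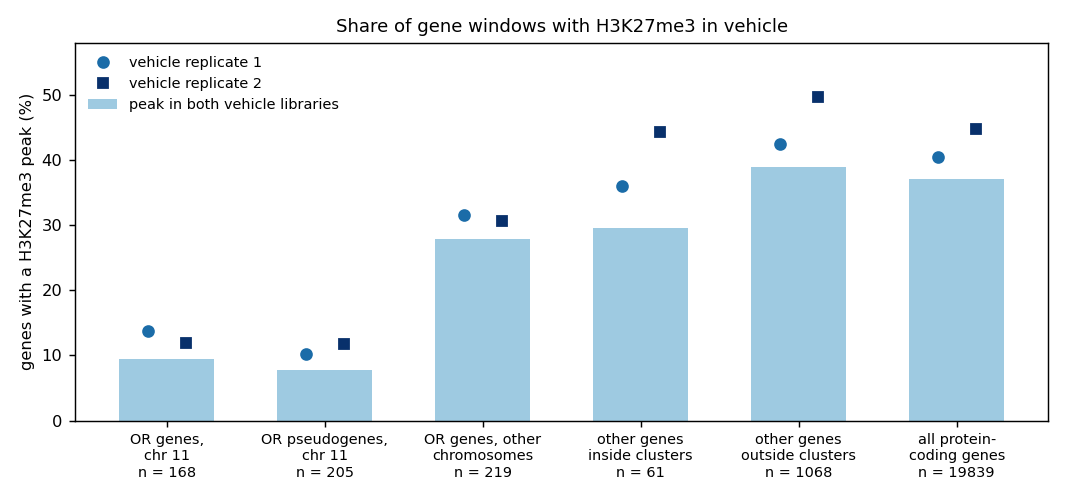
Percent of gene windows with a H3K27me3 peak in vehicle, by gene group (OR, olfactory receptor). Bars give the share marked in both libraries and points the share in each library; the receptor genes of chromosome 11 stand at 9.52% and their pseudogenes at 7.8%, below the other groups.

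Window length differs between the groups, since receptor genes are often annotated as a single short exon. The median window was 6103 bp for the receptor genes of chromosome 11 and 10002 bp over all genes. Among genes of 2000 bp or shorter, 6 of 92 receptor genes of chromosome 11 were marked (6.52%). The share was 26.1% of 92 receptor genes elsewhere, 32.4% of 68 other genes of chromosome 11 and 27.2% of 1220 genes in all. With a window at the start site only, of equal length for every gene, 6 of the 135 receptor genes of chromosome 11 with a known start were marked (4.44%), where 11 of the same 135 were by their full windows, and 29.3% of 818 other genes there.

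Receptor genes differed widely between chromosomes. On chromosome 11, 9.52% were marked in both vehicle libraries. On chromosome 19, 18 of 20 were marked (90.0%), and on chromosome 17, 10 of 13 (76.9%). Chromosomes 6, 9 and 14 lay between, at 35.3%, 32.0% and 20.8% of 17, 25 and 24 genes. On chromosome 1, the second largest group with 61 genes, 6 were marked (9.84%), close to the share on chromosome 11. None of 10 genes on chromosome 3 and none of 15 on chromosome 7 was marked in both libraries. Receptor genes of 1 chromosome often share a cluster, so a chromosome is closer to a few regions than to many genes.

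**Figure D2:**
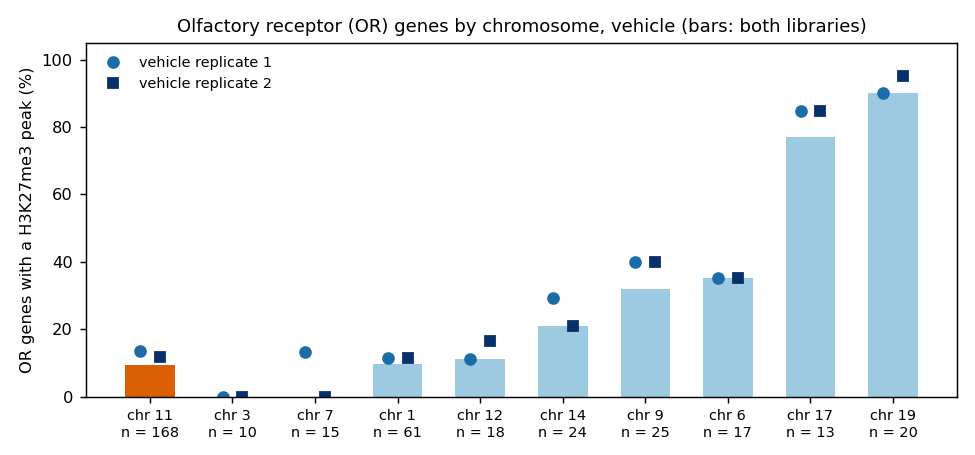
Percent of olfactory receptor genes with a H3K27me3 peak in vehicle on chromosome 11 (orange) and on each other chromosome with 10 or more of them. Bars give the share marked in both libraries and points each library; chromosome 11 stands at 9.52% and chromosome 19 at 90.0%.

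Along chromosome 11 the genes fall into 7 clusters when a gap of over 1 Mb starts a new one. Cluster 1, from 4367263 to 7941708, holds 67 genes, 55 of them class I, and 9 were marked in both vehicle libraries (13.4%). Cluster 2, from 48216810 to 48489722, holds 7 genes, and the neighbours OR4B1, OR4X2 and OR4X1 at its start were marked. At OR4B1, with 1511 and 275 bp in vehicle replicates 1 and 2, the peaks of the replicates did not overlap each other. Cluster 4, from 54603069 to 56989843, holds 48 genes, and OR5AK2 at its very end was the single marked one (2.08%), with 76 and 47 bp in vehicle replicates 1 and 2. In cluster 5, from 58023881 to 59713845, none of 21 genes was marked in both libraries and 3 in 1. In cluster 7, from 123753580 to 124571374, 2 of 22 were marked, OR8B3 and OR8B8. The small cluster 3 with OR4C13 and OR4C12 had no marked gene, and OR2AT4, which stands alone as cluster 6, was marked.

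Outside cluster 6, the spans between the genes held less H3K27me3 than the chromosome as a whole. H3K27me3 covered 0.656% and 0.843% of the span of cluster 4 in vehicle replicates 1 and 2, against 7.97% and 9.26% of chromosome 11 from its first to its last gene. In cluster 1 it covered 3.87% and 5.39%, in cluster 5 3.31% and 4.26%, in cluster 7 2.32% and 2.74%, and in cluster 2 3.38% and 2.21%. No H3K4me3 peak of any library lay within the spans of clusters 2, 3, 4 or 6. In clusters 1 and 5, which hold 43 and 14 other protein-coding genes, H3K4me3 covered 1.17% and 1.18%, and 1.67% and 1.68%, in vehicle replicates 1 and 2, against 1.63% and 1.67% of chromosome 11.

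**Figure D3:**
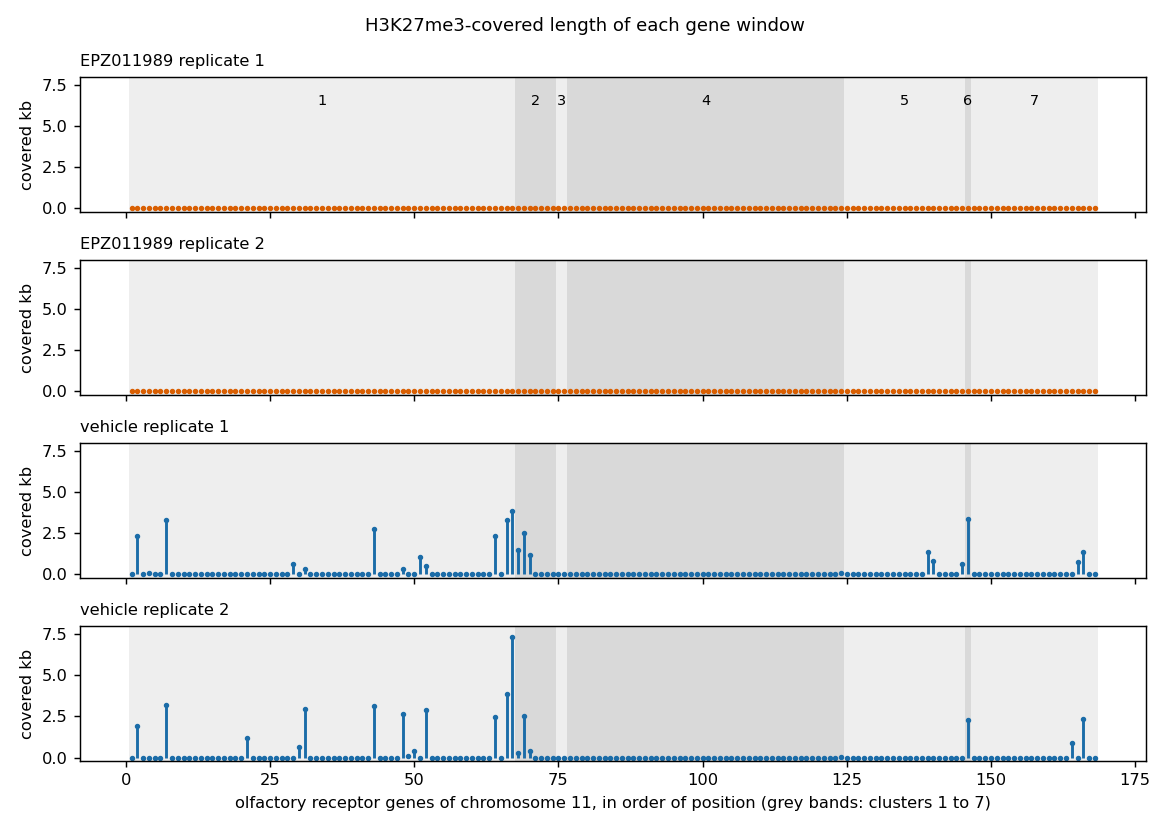
H3K27me3-covered length in kb of the window of each of the 168 receptor genes, in order of position on chromosome 11, with 1 panel per library. Grey bands are clusters 1 to 7; values are 0 at every gene in both EPZ011989 libraries, and cluster 4 is nearly empty in vehicle.

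The 12 genes with the highest mean H3K27me3 in vehicle lie in 4 of the clusters. The highest was OR10A3, at 7937171 to 7941708, with 0 and 0 bp in the EPZ011989 libraries, against 3871 and 7342 bp in the vehicle libraries. Its neighbour OR10A6, at 7924592 to 7931268, had 0 and 0 bp with EPZ011989, against 3336 and 3883 bp in vehicle. Both encode class II receptors and lie at the far end of cluster 1. In both genes every vehicle value stood above every EPZ011989 value, and the spread between vehicle replicates was wide at OR10A3 and narrow at OR10A6.

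Among class I genes the highest were OR51D1 and OR52N2. OR51D1, at 4637477 to 4643060, had 0 and 0 bp with EPZ011989, against 3326 and 3203 bp in vehicle. OR52N2, at 5808924 to 5821483, had 0 and 0 bp with EPZ011989, against 2745 and 3153 bp in vehicle. The vehicle replicates were close to each other at both genes. OR52K2 followed with 0 and 0 bp against 2315 and 1929 bp. At OR56A1 (0 and 0 bp against 526 and 2886 bp), OR51M1 (0 and 0 bp against 351 and 2944 bp) and OR56A3 (0 and 0 bp against 350 and 2637 bp) vehicle replicate 2 was several times higher than replicate 1. OR56A1 and OR56A3 share a part of their windows and 1 covered region of 3196 bp there, so they are not separate observations.

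The remaining named genes are class II. OR2AT4, a receptor known to respond to a synthetic sandalwood odorant and described in keratinocytes, had 0 and 0 bp with EPZ011989, against 3392 and 2281 bp in vehicle. OR4X2 had 0 and 0 bp with EPZ011989, against 2504 and 2549 bp in vehicle. OR5P2 had 0 and 0 bp with EPZ011989, against 2326 and 2447 bp in vehicle. At OR4X2 and OR5P2 the vehicle replicates nearly coincided. OR8B8 had 0 and 0 bp with EPZ011989, against 1381 and 2320 bp in vehicle. The smallest covered window lengths among the 16 marked genes were those of OR5AK2 and OR8B3. OR8B3 had 0 and 0 bp with EPZ011989, against 37 and 864 bp in vehicle, so that the call at these genes rests on a few bp in 1 or both libraries.

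The peaks at the receptor genes had longer medians than the whole lists, but few reached a strong score. Overlap with a window picks longer peaks and merged regions more often, and its part in the longer medians was not tested. Vehicle replicates 1 and 2 each listed 25 peaks at the windows of the receptor genes, with median lengths of 1600 and 2004 bp, against 1305 and 1382 bp over the whole lists. Their median −log10 q by the authors' MACS2 run was 1.97 and 2.09, against 2.11 and 2.15 over the whole lists. A −log10 q of 5 or more was reached by 0 and 1 of them, the 1 being at OR5P2 (6.18), against 12.3% and 13.6% of all peaks. Merged over both vehicle libraries, the 23 covered regions at marked genes ran from 266 to 7342 bp, with a median of 2209 bp. None touched the window of a protein-coding gene of another kind. On chromosome 11 as a whole, the 3628 merged regions had a median of 1251.5 bp, and 10.9% were longer than 7342 bp.

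Marked and unmarked genes were then compared. Gene length enters the call, since a longer gene has a longer window. Of the 16 marked genes 10 were annotated as longer than 2000 bp (62.5%), against 61 of the 141 unmarked (43.3%), and their windows had medians of 10002 and 6071 bp. The features that follow were not used by the call. The median distance to the nearest protein-coding gene of another kind was 91260 bp for marked and 96718 bp for unmarked genes. Within 50 kb of such a gene lay 4 of 16 marked genes and 36 of 141 unmarked genes (25.5%). The nearest vehicle H3K4me3 peak lay at a median of 113977 bp (replicate 1) and 124466 bp (replicate 2) from marked genes, and at 375469 and 374636 bp from unmarked genes. Genes of 1 cluster share these neighbours, and the differences were not tested.

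Class I and class II genes were compared next. Marked in both vehicle libraries were 6 of 55 class I genes (10.9%) and 10 of 113 class II genes (8.85%), a difference of 2.06 percentage points. In vehicle replicates 1 and 2 the difference was 3.97 and 9.33 points, with an SD of 3.79 between them. Among genes of 2000 bp or shorter it was −4.24 points, from 3.57% of 28 class I and 7.81% of 64 class II genes, where single genes can set the sign. Class I genes lay closer to other genes, at a median of 35751 bp, against 145968 bp for class II genes. By family, OR51, OR52 and OR56 had 2 marked genes each of 23, 25 and 7, and OR4, OR5, OR8 and OR10 had 3, 2, 2 and 2 of 24, 34, 22 and 16. OR2 had 1 marked gene of 5, OR2AT4. None of the genes of families 1, 6 and 9, which hold only 2, 5 and 5, was marked in both libraries.

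Promoters of the receptor genes were poor in CpG. They held a median of 1 CpG in 300 bases, against 22 over the promoters of 15812 protein-coding genes, and their median GC content was 37.0%, against 62.7%. The median was 1 in both the 11 marked and the 116 unmarked genes with a promoter entry. Of the genes with no CpG, 1 CpG and 2 or more, 8.33% of 36, 8.33% of 48 and 7.84% of 51 were marked. OR52N2, with 14 CpG and a GC content of 55.3%, stood apart: the next gene, OR51S1, held 6 and had no peak of either mark in any library. The letters TATAAA, searched on both strands, were in 35.6% of the receptor promoters and 9.75% of all promoters. TAATTA, which reads the same on both strands, was in 24.4% and 3.36%. The promoters of 177 receptor genes on other chromosomes were alike in this, with a median of 1 CpG, TATAAA in 34.5% and TAATTA in 21.5%. Both words hold only A and T, and the part of the lower GC content in their shares was not tested. Among marked genes 6 of 11 held TATAAA and 1 of 11 TAATTA, against 38 and 31 of 116 unmarked genes.

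**Figure D4:**
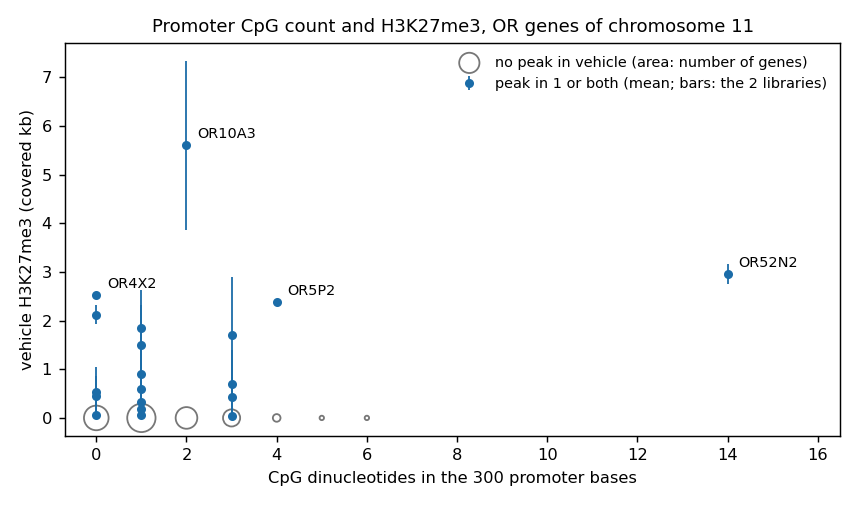
Mean H3K27me3-covered kb in vehicle against the number of CpG dinucleotides in the 300 promoter bases, for the 135 receptor genes with a promoter entry. Error bars span the 2 vehicle libraries, and open circles are genes with no peak; OR52N2 stands alone at 14 CpG with 2745 and 3153 bp.

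The second comparison set EPZ011989 against vehicle. H3K27me3 at the receptor genes was not detected in either EPZ011989 library: 0 of 168 genes had a peak, against 0.207% of all genes with a peak in any EPZ011989 library. All 16 genes marked in both vehicle libraries had 0 bp in both EPZ011989 libraries. Over the whole table this held for 7326 of the 7354 genes marked in both vehicle libraries, which are 36.9% of all genes, so the receptor genes did not stand apart in it. Summed over the merged windows, covered length was 0 kb in both EPZ011989 libraries and 36.9 ± 3.19 kb in vehicle (SD, n = 2). The exact two-sided permutation p was 0.33, the smallest that 2 + 2 libraries allow.

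By limma with Benjamini-Hochberg adjustment over 9579 genes, 27 of the 168 could be tested. Each entered through a vehicle peak and had 0 bp in both EPZ011989 libraries, so none could come out higher, and the number called supports nothing about the receptor genes as a group. As a description, 8 passed the threshold as lower with EPZ011989, against 60.2% of all genes tested. They were OR4X2 (−2527 ± 25.2 bp, standard error, adjusted p = 6.96e-05), OR51D1 (−3265 ± 56.7 bp, adjusted p = 0.000239), OR5P2, OR52N2, OR10A6, OR52K2, OR2AT4 and OR8B8. OR8B8 lay at the threshold (adjusted p = 0.04998). OR10A3, with the largest difference (−5607 bp), did not pass (adjusted p = 0.0741). No calls are given for the H3K27me3 fits without a library, since each leaves a single library in a group. Without vehicle replicate 1 and without vehicle replicate 2, the difference in length summed over the merged windows was −39131 and −34617 bp. Under quantile normalization, which forces 1 distribution on all libraries, 2 receptor genes were lower and 11 higher, against 3585 lower and 3289 higher of all 9579 genes tested.

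H3K4me3 was listed at a single receptor gene, and with EPZ011989 only. OR52N2 had 910 and 408 bp in the EPZ011989 libraries and 0 and 0 bp in the vehicle libraries. The part of the higher background of the EPZ011989 H3K4me3 libraries in this difference was not tested. In vehicle no receptor gene of chromosome 11 had a H3K4me3 peak in either library, against 65.4% of all genes with a peak in both. The mark was also rare at the most similar genes, with a peak in both vehicle libraries at 4 of 219 receptor genes elsewhere (1.83%) and at 1 of 205 receptor pseudogenes of chromosome 11. The pattern at OR52N2, listed in both EPZ011989 libraries and absent from both vehicle lists, was shared by 0.927% of all genes, and 68.9% had a peak in at least 1 EPZ011989 library. The opposite pattern, listed in both vehicle libraries alone, was present at 0 receptor genes and at 0.141% of all genes. The values of the EPZ011989 libraries lay above those of the vehicle libraries, by 659 ± 220 bp (standard error), and the limma adjusted p over 13785 genes was 0.428. Only 1 receptor gene, OR52N2, could be tested for H3K4me3. It was not called by limma, and in this fit no gene of the whole table was. Over the whole table other settings did give calls, with 0 lower and 36 higher for windows of 5000 bp, 7 lower and 89 higher after quantile normalization, and 32 lower and 491 higher with no filter. At an unadjusted p under 0.05, 1 receptor gene was higher by limma, OR52N2, and 0 were lower, with 1158 higher and 204 lower over all genes. It passed that unadjusted level without EPZ011989 replicate 2 too, and not without any other of the 4 libraries.

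At OR52N2 the marks lay over the same start. The promoter printed above was covered by H3K4me3 over 300 and 266 of 300 bp in the EPZ011989 libraries. It was covered by H3K27me3 over 294 and 300 bp in the vehicle libraries. The H3K27me3 peaks were 3025 and 3331 bp long, and the H3K4me3 peaks 910 and 408 bp. Within their own lists the H3K4me3 peaks ranked low, with −log10 q of 18.2 and 4.05 at the 35.9th and 19.4th percentile. The nearest H3K4me3 peak in vehicle lay 411676 bp (replicate 1) and 410843 bp (replicate 2) away. OR10A3 and OR4X2, whose promoters were also covered by H3K27me3 in vehicle, had 0 bp of H3K4me3 in every library. That OR52N2 is both the most CpG-rich of the promoters and the gene with H3K4me3 is 1 gene, and no relation between CpG and H3K4me3 was tested.

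**Figure D5:**
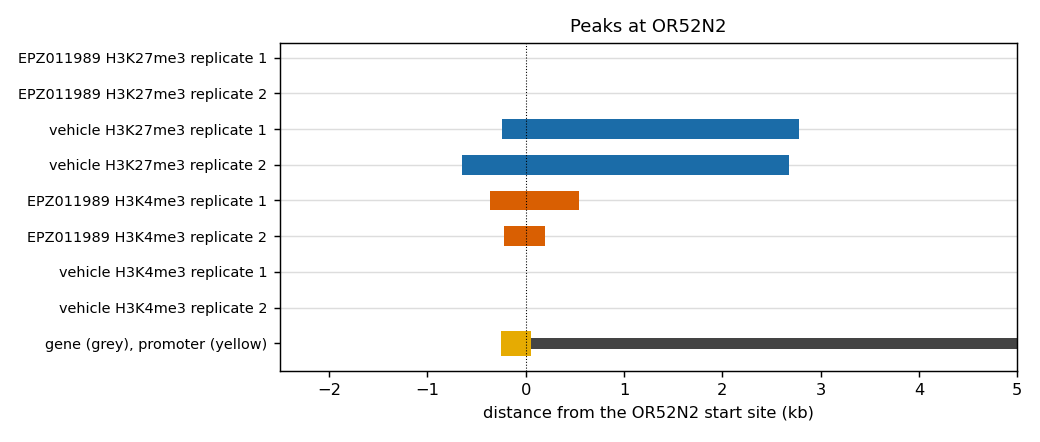
Peaks at OR52N2 in each library, by distance in kb from its start site, with the 300 promoter bases in yellow. H3K27me3 peaks of 3025 and 3331 bp cover the start in vehicle and none is listed with EPZ011989; H3K4me3 peaks of 910 and 408 bp are listed with EPZ011989 and none in vehicle.

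Other genes of odour detection and neighbours of the clusters were set beside the receptors. Of 19 genes of olfactory signal transduction, 11 carried H3K27me3 in both vehicle libraries, against 37.1% of all genes. By limma 8 of the 13 tested were lower with EPZ011989 and 0 higher, near the 60.2% lower among all genes tested. GNAL, for the G protein subunit that couples the receptors, had 0 and 0 bp with EPZ011989, against 5001 and 5001 bp in vehicle (limma adjusted p = 3.21e-06). Neither group had any spread at GNAL, so this p does not measure a spread between duplicates there. CNGA4, for a subunit of the olfactory cation channel, had 0 and 0 bp against 5777 and 7910 bp (limma adjusted p = 0.0218). ANO2, for a chloride channel, and SLC24A4, for a cation exchanger, were lower too. Of 14 regulators linked to receptor choice, 7 were marked, and 6 of the 10 tested were lower and 0 higher, again near the 60.2% over all genes tested. All 14 carried H3K4me3 in both libraries of each treatment, as 65.4% of all genes did in vehicle. EBF3 and EBF4, transcription factor genes, had 0 and 0 bp each, against 10002 and 10002 bp each, and EMX2 and LHX2 were lower as well. The median difference in H3K27me3 over the signal transduction list was −888 bp, and it was 0 bp over all genes and over the receptor genes.

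Within cluster 1 lie the beta-globin genes and several TRIM genes, whose products include antiviral factors. None of the 5 beta-globin genes was marked in both vehicle libraries, HBD having 0 and 0 bp with EPZ011989 and 0 and 329 bp in vehicle, and none carried H3K4me3. Of 8 TRIM genes of the chromosome arm, 3 were marked, near the 37.1% of all genes, and of 5 tested 1 was lower and 0 higher, against 60.2% lower over all genes tested. The lower one was TRIM21, with 0 and 0 bp against 2191 and 2744 bp (limma adjusted p = 0.00935). Of the 16 MS4A genes of chromosome 11, some of which encode olfactory receptors of another type in the mouse, 5 were marked, against 37.1% of all genes. Of 10 tested, 2 were lower (MS4A8 and MS4A18) and 0 higher, against 60.2% lower over all genes tested. By summed absolute difference over the 8 H3K27me3 and H3K4me3 libraries, the genes of chromosome 11 most like the mean of the marked receptor genes were NLRP10 (454 bp), IRAG1 (496 bp) and SAA1 (625 bp). NLRP10 had 0 and 0 bp of H3K27me3 with EPZ011989, against 1972 and 2220 bp in vehicle, and is the nearest protein-coding gene of another kind to OR10A3, 15829 bp away.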

How the data were processed

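Per the labels' protocols, CUT&RUN libraries were made from MKL-1 cells, and the authors deposited 1 peak list per library, broad for H3K27me3 and narrow for H3K4me3 and IgG. The build is hg38, per the submitters' processing notes. MACS2 2.1.1.20160309, Bowtie2 2.2.9, SAMtools 0.1.19 and FastQC are named, per the submitters' processing notes. Calling thresholds, control library, use of the spike-in and handling of reads that match several receptor genes are not given in the sources used here. Every deposited peak has a fold (a ratio of pileup to background), a −log10 p, a −log10 q and a score by the authors' MACS2 run.

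Overlapping peaks of a library were merged and the covered bp of each gene window counted, with no scaling between libraries. The 135 protein-coding genes that the gene table places on other scaffolds were left out. limma 3.58.1 (trend, robust; R 4.3.3) was run separately for each mark on genes covered in 1 or more of its 4 libraries, and p-values adjusted by Benjamini-Hochberg were called under 0.05. The script was tested on simulated data. Other tools were scipy 1.17.1, pandas 2.3.3, numpy 2.4.6 and matplotlib 3.10.9 in Python 3.11.15. Named genes are the 12 with the highest mean vehicle H3K27me3 and every one with a H3K4me3 peak or an EPZ011989 H3K27me3 peak, and up to 4 genes per list. Alternatives were other window sizes, a stricter q, a larger overlap, scaling, a replicate block and leaving out each library. Start-site windows and the restriction to short genes were added after the data were seen. The genes and lists were chosen with earlier results of these data known.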

Additional observations from a re-analysis of the deposited data

How the results depend on the processing

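The count of 16 marked receptor genes was 26 with windows of 5000 bp, 10 with an overlap of 500 bp or more and 0 with a −log10 q of 5 or more. The share over all genes, 37.1% in the main setting, was 42.3%, 32.7% and 18.3% in the same order. With a window at the start site only the count was 6 of the 135 genes with a known start, of which 11 were marked in the main setting. Of all genes with a known start, 32.5% were marked by that window. With that stricter q, 1 receptor gene could be tested by limma. It was not called lower, against 3291 lower of all 4457 genes tested. In that setting 0 clusters held a marked gene, the class difference was 0 and the difference to other genes of chromosome 11 was −18.8 points. That difference, −28.8 points in the main setting, ran from −37.4 to −28.5 without single vehicle libraries and kept its sign under all 9 alternatives. The 8 genes lower by limma were 4 with windows of 1000 bp and 2 after quantile normalization, and 3 to 23 without single libraries. The class difference of 2.06 points was 9.43 with windows of 5000 bp, −4.24 among short genes, and 3.97 to 9.33 without single vehicle libraries. The difference in median CpG count, 0, was 0.5 with windows of 1000 bp and 1 with the larger overlap. The difference in median distance to another gene, −5459 bp, was −14841 and −336 bp with windows of 1000 and 5000 bp, −31793 bp with the larger overlap, and −5461 to −3696 bp without single vehicle libraries. With windows of 5000 bp, 1 gene carried H3K4me3 in both vehicle libraries. The cause of these changes was not tested. No receptor gene was called for H3K4me3 under any of the 11 alternatives, while calls over the whole table varied. In most of these H3K4me3 fits only 1 receptor gene could be tested, with 2 for windows of 5000 bp. With no filter all 168 entered, all but OR52N2 at 0 bp in every library. With the replicate block 6 of 27 receptor genes were lower for H3K27me3, not 8, against 4546 lower of all 9579 genes tested. The deviations of libraries with the same replicate number had a correlation of −0.0297 for H3K4me3, which did not show pairing by number and cannot exclude it. For H3K27me3 the correlation was 0.0163. It cannot decide on pairing there, since only 41 genes had a peak in any EPZ011989 library and the other deviations are 0. The H3K27me3 test with no filter could not be fitted, since 58.6% of genes had no spread within groups, and with the stricter q no marked gene was left to compare. Peak lists without reads limit what can be said of unlisted genes: a weak mark under the calling threshold would not appear.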

Other observations

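One receptor pseudogene of chromosome 11, OR8B9P at 124481078 to 124481563 in cluster 7, carried H3K4me3 in all 4 libraries, with 937 and 428 bp with EPZ011989 and 723 and 544 bp in vehicle. It was the one pseudogene of 205 with a H3K4me3 peak in any library. It had 0 and 0 bp of H3K27me3 with EPZ011989, against 0 and 390 bp in vehicle.

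Other chemoreceptor genes, for taste, trace amine and vomeronasal-type receptors, were marked with H3K27me3 in both vehicle libraries at 5 of 36, against 37.1% of all genes. By limma 4 of the 6 tested were lower with EPZ011989 and 0 higher, against 60.2% lower over all genes tested. TAS1R2, for a subunit of the sweet taste receptor, had 0 and 0 bp with EPZ011989, against 10002 and 10002 bp in vehicle. VN1R2, a vomeronasal-type receptor gene of chromosome 19, had 0 and 0 bp with EPZ011989, against 6311 and 6311 bp in vehicle.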
